A study of Mus musculus with 167 samples.

Results

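Fibroblasts driven towards a dendritic cell fate for 9 days were compared with the splenic cell type whose regulator they received, type 2 conventional dendritic cells (cDC2). The cultured cells, called PIP cells here, started as C9a.MEF, mouse embryonic fibroblasts carrying Clec9a(Cre/Cre) and Rosa26(tdTomato/tdTomato), both homozygous. Lentivirus delivered Pu.1 (gene Spi1), Irf4 and Prdm1 to them. On day 9 the live, DAPI-negative cells positive for both tdTomato (tdT) and CD45 were sorted, which gave 4 libraries labelled tdT+CD45+. The reference was 3 libraries of cDC2 taken from the spleens of wildtype mice and sorted straight away as live CD11c+MHC-II+CD11b+XCR1- cells. The fibroblasts had been grown on gelatin in DMEM with serum, whereas the cDC2 had not been cultured, so that culture, tissue of origin and genotype differ between the groups together with reprogramming and cannot be told apart. The tdT reporter records past activity of the Clec9a promoter, and the tdT and CD45 gates do not ask that a cell carry CD11c or MHC class II. The labels give neither the age nor the sex of the animals and do not say that replicates came from separate cultures or animals, so the p-values measure only the spread between these samples.

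The comparison covered genes with a mean of 10 CPM or more (counts-per-million, scaled by the TMM method, which corrects for differences in library composition) in either group. These were 10198 of the 57010 identifiers counted, measured in 7 libraries of the series. Just inside that limit were Gm6794 with 10.0044 CPM in PIP cells and Lsm2 with 10.0074 CPM in cDC2, and just outside it were Bivm with 9.987 CPM in PIP cells and Scarna6 with 9.986 CPM in cDC2.

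Conventional dendritic cells take up antigen, process it in endosomes and show it to T cells on MHC class II molecules, with costimulatory ligands and cytokines as further signals. The cDC2 branch depends on Flt3 signalling, on the factor Irf4 and, in the spleen, on Notch2 signalling, and its cells carry CD11b, SIRPα and a set of C-type lectins on the surface. PU.1 is an ETS-family factor of all myeloid cells that binds DNA together with Irf4 at composite sites. Prdm1 encodes Blimp-1, a zinc finger repressor known from plasma cells and from effector T cells.

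Library totals were 6646753 to 9691332 counts for cDC2 and 10958041 to 15247372 for PIP cells, and TMM factors were 1.03 to 1.09 and 0.93 to 0.98. RNA had been extracted from 5000 cells each and amplified with 13 to 14 PCR cycles with a stranded total RNA kit. Identifiers without a gene name took 9.45% to 13.2% of the counts in cDC2 and 13.3% to 21.8% in PIP cells, and mitochondrial genes 5.35% to 5.46% and 6.51% to 7.33%. The part of these differences in the results was not tested, apart from a fit without unnamed identifiers. In bulk RNA, fewer cells expressing a gene and less RNA per cell cannot be told apart. Reads of the viral and the endogenous copies of Spi1, Irf4 and Prdm1 were not told apart either, and genes with near-identical copies, such as Csf2rb and Csf2rb2, the Cd209 family, H2-Q genes, Hspa1a and Hspa1b, and Lilrb4a and Lilr4b, may share reads.

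The 10198 genes were split by edgeR's quasi-likelihood test with Benjamini-Hochberg adjustment, with calls made at an adjusted p below 0.05 and 2-fold or more. Of them 2720 were called lower in PIP cells (26.7%) and 2739 higher (26.9%), beside 4470 lower (26.7%) and 4920 higher (29.3%) of all 16771 genes tested, whose median log2 fold change was 0.04. Membership itself fixed part of this: 985 genes had 10 CPM or more in cDC2 and under 5 in PIP cells, and 1149 the converse, so that these 2134 had to differ. Among the 6710 genes with 10 CPM or more in both groups, 1294 were lower, 1154 higher and 4262 neither. Of the 8399 genes with 10 CPM or more in cDC2, 2720 were lacking (called lower), among them 343 that were near absent (mean under 1 CPM in PIP cells). A further 3507 were kept, meaning not called and with the 95% interval of the log2 fold change inside -1 to 1. The remaining genes of that level were 1154 called higher and 1018 neither called nor held within 2-fold. The libraries of the groups did not overlap for 2705 of the 2720 lacking genes and for 2733 of the 2739 in excess (PIP mean of 10 CPM or more, called higher). They also did not overlap for 2109 of the 3507 kept genes, so a lack of overlap does not by itself set the called genes apart. Changes reached 16-fold for 624 lacking genes and 811 in excess. Of the genes named below, libraries of the groups overlapped for Ccr2, Tcf4, Il15ra, Ticam1, Ly75, Cd53, Il1b, Csf2rb2, Ctsc, Ddx58, Jund, Atf4, Hes1, Actg1, Eef2, Phf11b and Gm49368, all kept, and for no other.

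**Figure D1:**
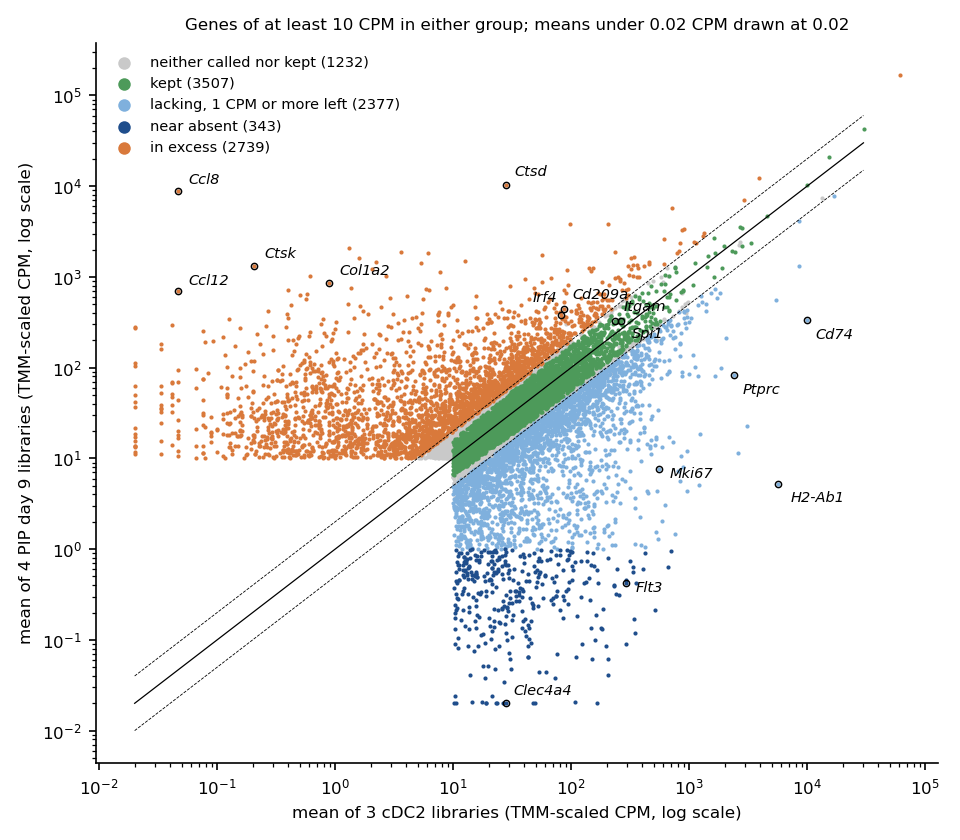
Mean level of each gene in the 4 PIP libraries (vertical axis, TMM-scaled CPM, log scale) against the mean in the 3 cDC2 libraries (horizontal axis, same unit and scale), coloured by class. The 343 near absent genes lie below 1 CPM on the vertical axis and the 3507 kept genes along the diagonal.

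What the cDC2-level genes did in PIP cells went with the level in the untreated fibroblasts (C9a.MEF, 4 libraries). Of 453 genes at 10 CPM or more in cDC2 and under 1 CPM in the fibroblasts, 418 (92.3%) were lacking, 238 of them near absent, while 14 were kept, 15 in excess and 6 unresolved. A test of PIP cells against the fibroblasts called 15.2% of 15693 genes higher and 14.5% lower. Only 193 of the 453 were tested there, and as all were chosen for a low level in the same fibroblast libraries, nothing is read from their calls. Genes of 10 CPM or more in both cDC2 and fibroblasts numbered 6912, of which 1555 (22.5%) were lacking and 3333 (48.2%) kept. From the fibroblast side, 808 genes had 10 CPM or more in C9a.MEF and under 1 in cDC2, and 447 of these (55.3%) were still at 10 CPM or more in PIP cells, with a median of 12.04 CPM against 37.1 CPM in the fibroblasts. Only 3 of the 808 had fallen below 1 CPM. These counts share the PIP and cDC2 libraries with the classes and are given as a description.

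Of the 343 near absent genes, 38.2% had 10 CPM or more in splenic cDC1, 38.5% in plasmacytoid dendritic cells (pDC) and 24.2% in both. These shares were below the 44.1%, 45.1% and 37.97% of all 16771 genes tested, which were not chosen for their cDC2 level. Classes that were chosen at 10 CPM or more in cDC2 are the closer base. There the shares were 75.04%, 72.35% and 64.12% of lacking genes, which include the near absent, and 87.03%, 87.31% and 81.01% of kept genes. In the fibroblasts 3.21% of the near absent genes reached 10 CPM, beside 54.3% of all genes tested and 82.3% of the 8399 genes at 10 CPM or more in cDC2. Of the kept genes 95.04% did, to be read against that 82.3%. Of the 556 genes in excess with a cDC2 mean under 1 CPM, 80.4% had 10 CPM or more in the fibroblasts, beside 91.8% of the 8509 genes at 10 CPM or more in PIP cells.

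The delivered factors were all present, at or above the level in cDC2. Spi1 had 334, 332, 291 and 345 CPM in the 4 PIP libraries and 258, 257 and 282 CPM in the 3 cDC2 libraries. The groups did not overlap, yet Spi1 counted as kept, with a log2 fold change of 0.29 ± 0.08 (SE). Irf4 averaged 385 ± 26.2 CPM in PIP cells (SD, n = 4) and 82.8 ± 1.75 in cDC2 (SD, n = 3), 4.65-fold higher. Prdm1 averaged 385 ± 46.1 and 7.50 ± 1.71 CPM, 51.1-fold higher, so that the third factor was present at a level the splenic cells did not have.

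Of the 7 genes behind the cDC2 gate and the CD45 gate, 6 were lower in PIP cells and 1 was kept. The 6 include Xcr1, the negative marker of the cDC2 gate. The kept one was Itgam, the CD11b chain, with 291, 378, 268 and 355 CPM in PIP cells against 226, 237 and 249 in cDC2, and 4.07 CPM in the fibroblasts. Itgax, which encodes CD11c, averaged 80.3 ± 5.41 against 867 ± 34.1 CPM, 10.8-fold lower. Ptprc, the gene of CD45 on which the PIP cells had been sorted, had 62.9, 92.99, 70.9 and 101.6 CPM against 2480, 2518 and 2193 CPM. That is 29.2-fold lower (log2 fold change -4.87 ± 0.15, adjusted p 1.2e-09), although both groups were CD45-bearing cells. H2-Aa, H2-Ab1 and H2-Eb1, the class II chains of the cDC2 gate, are described below with their pathway. Xcr1, absent from cDC2 by the gate, had 3.48 CPM in cDC2 and 0.121 in PIP cells.

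The 22 cDC2 markers split: 13 were lower, 7 of them near absent, 5 were higher and 4 neither, with a median log2 fold change of -3.55. Counts for this and later lists are to be read against the 26.7% lower and 29.3% higher of all genes tested. The C-type lectin Clec4a4, which encodes DCIR2, the marker of the splenic subset that is ESAM-high, had no count in any PIP library and 28.1, 26.2 and 29.2 CPM in cDC2, at least 441-fold lower against a floor of 3 counts over the group. Cd300a, an inhibitory receptor, had 0.0695 to 0.0958 CPM in the PIP libraries and 196 to 197 in cDC2. Ltb, the lymphotoxin beta ligand, fell to 0.298 ± 0.117 from 121.8 ± 20.99 CPM. None of these groups came near each other.

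The markers tied to Notch2-dependent splenic cDC2 were low in PIP cells. Dtx1, a Notch target gene, averaged 0.798 ± 0.319 CPM against 205 ± 2.55, Esam 0.308 ± 0.140 against 19.01 ± 2.77, and Cd4 1.14 ± 0.475 against 170 ± 13.6. The receptor Notch2 itself was kept, at 833 ± 85.4 and 629 ± 16.01 CPM. Cx3cr1, the fractalkine receptor, averaged 1.90 ± 1.33 against 56.7 ± 5.93, and Tbx21, which encodes the factor T-bet of one cDC2 subset, 1.06 ± 0.525 against 23.3 ± 0.453. Clec10a and Clec4a2, lectins of the other subset and of myeloid cells, were under 0.5 CPM in PIP cells against 15.9 and 20.9 CPM. Mgl2 was low in both groups, with 1 count in all PIP libraries and 3.47 CPM in cDC2.

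Sirpa, the receptor for CD47 used to sort cDC2, was 6.28-fold lower at 133.6 ± 11.4 against 839 ± 38.8 CPM, and the factor Klf4 2.42-fold lower at 46.1 ± 4.61 against 111.98 ± 8.78. Ccr2, the receptor for Ccl2, was kept. It had 44.7, 65.3, 50.6 and 66.9 CPM in PIP cells and 55.7, 57.8 and 68.5 in cDC2, with overlapping libraries and an interval of the log2 fold change from -0.40 to 0.21. S100a4, a calcium-binding protein, and Tmem176b, a membrane protein of endosomes, were neither called nor kept, at log2 fold changes of -0.95 ± 0.09 and 0.92 ± 0.09.

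Among the markers called higher was Cd209a, a DC-SIGN family lectin. It had 422, 466, 419 and 461 CPM in PIP cells against 87.8, 83.2 and 89.8 in cDC2, 5.08-fold higher with no overlap. Clec12a was 3.36-fold higher at 64.3 ± 4.75 against 19.1 ± 0.953 CPM, and Tmem176a 2.13-fold higher at 289 ± 14.7 against 135.1 ± 14.96. Irf4 was higher as given above, its viral copy included, and Hepacam2 averaged 7.74 against 1.24 CPM.

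**Figure D2:**
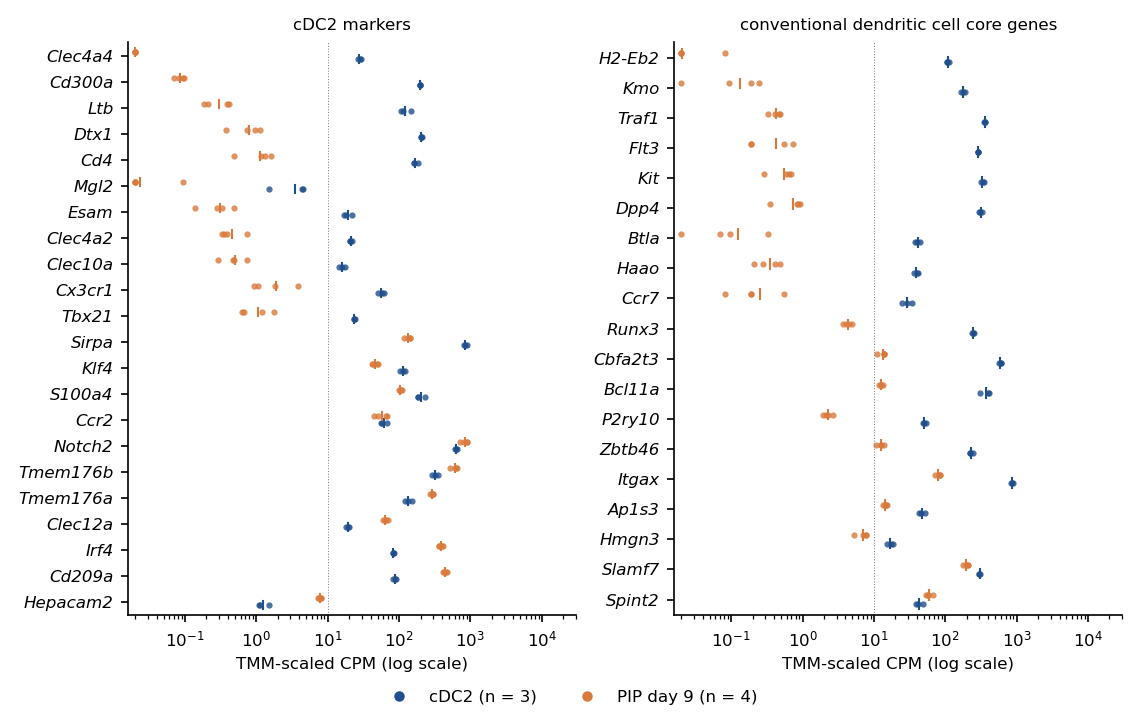
Level of each cDC2 marker and each conventional dendritic cell core gene in every library (horizontal axis, TMM-scaled CPM, log scale, dotted line at 10 CPM; 3 cDC2 and 4 PIP libraries as dots), ordered by log2 fold change. PIP libraries sit left of the cDC2 libraries for most rows, overlap them at Ccr2 and lie to the right at Cd209a.

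Genes shared by conventional dendritic cells at large were lacking more uniformly. Of 19 such core genes 17 were lower, 9 of them near absent, and none was higher, at a median log2 fold change of -5.82. Flt3, the receptor of the cytokine that drives dendritic cell development, had 0.745, 0.556, 0.192 and 0.188 CPM in PIP cells against 288, 291 and 289 in cDC2. Kit, a receptor tyrosine kinase, had 0.555 ± 0.184 against 332 ± 16.7 CPM. Kmo, an enzyme of tryptophan breakdown, Traf1, an adaptor of TNF receptors, and Dpp4, the peptidase CD26, had 0.133, 0.424 and 0.741 CPM against 177, 357 and 314. Each of these genes was below 1 CPM in every PIP library and above 100 CPM in every cDC2 library.

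Both core genes that were kept are surface proteins. Slamf7, a SLAM family receptor, had 175, 210, 192 and 209 CPM against 312, 299 and 300, 1.54-fold lower with the interval inside 2-fold. Spint2, a membrane-bound protease inhibitor, averaged 58.5 ± 5.72 against 42.9 ± 4.62 CPM.

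Of 32 transcription factors of dendritic cells, 20 were lower, 2 higher and 10 neither, 9 of them kept, at a median of -1.34. Spib, an ETS factor of B cells and pDC, averaged 0.269 ± 0.189 CPM against 36.4 ± 3.59. Irf8, the partner of PU.1 in cDC1 and pDC, averaged 2.20 ± 0.794 against 141.9 ± 4.13, 64.005-fold lower. Runx3 was 56.7-fold lower (4.29 against 244 CPM) and Cbfa2t3, a corepressor needed for Irf8 expression in progenitors, 44.6-fold lower (13.3 against 592). Zbtb46, a repressor restricted to conventional dendritic cells among immune cells and added after its values were seen, averaged 12.5 ± 1.31 against 231 ± 10.1 CPM and 1.39 in the fibroblasts.

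Of the list of dendritic cell factors and their regulators, the kept members with the highest cDC2 levels were the receptor Notch2, Stat3 and Zeb2. Stat3, which acts downstream of Flt3 and interleukin receptors, averaged 205 ± 11.1 against 256 ± 4.15 CPM, and Zeb2, a zinc finger factor of cDC2 and pDC, 153.5 ± 8.41 against 248 ± 22.1. Both were at 247 and 143.7 CPM in the fibroblasts. In excess were Etv3, an ETS repressor, with 983, 1089, 1049 and 1128 CPM against 320, 308 and 303, and Rbpj, the DNA-binding effector of Notch, 2.15-fold higher at 303 ± 18.1 against 141.3 ± 5.38.

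Antigen presentation genes of MHC class II were lower for 13 of 14, 4 of them near absent, and 1 was kept, at a median of -7.47. Their summed level was 606 to 712 CPM in the PIP libraries and 23595 to 27083 CPM in cDC2. In cDC2 their transcription rests on Ciita, the class II transactivator, which has no DNA-binding domain of its own and is held at class II promoters by factors at the X and Y boxes. H2-Ab1, the beta chain of I-A, had 3.15, 6.26, 2.87 and 8.81 CPM in PIP cells against 5238, 5391 and 6359. H2-Aa, its alpha chain, had 8.86, 13.4, 8.53 and 14.7 against 2578, 2557 and 2685. H2-Eb1, the beta chain of I-E, averaged 22.5 ± 3.45 against 3096 ± 285. They were 1069-, 228- and 137.2-fold lower without overlap, yet H2-Aa and H2-Eb1 were above the fibroblasts, where they had 0.0735 and 0.465 CPM.

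The accessory genes were lacking too. H2-Oa, H2-Ob and H2-Eb2 were down to 1, 3 and 1 counts in all 4 PIP libraries together, against 164.9, 203 and 107.5 CPM in cDC2, and H2-DMb2, a chain of the peptide exchanger, averaged 0.629 against 333 CPM. Ciita averaged 5.09 ± 1.51 against 1205 ± 27.8 CPM, 235-fold lower, and Cd74, the invariant chain, 333 ± 22.1 against 9993 ± 756, 29.99-fold lower. These genes were added after their values were seen. The cathepsin Ctss, which trims the invariant chain, was 5.66-fold lower at 120 ± 17.7 against 682 ± 45.6 CPM. March1, the ubiquitin ligase that removes class II from the surface, was the gene kept, with 97.6, 108.3, 116.2 and 112.4 CPM against 161.4, 187 and 175. In the fibroblasts Ciita had 0.166, Cd74 0.283 and March1 0.766 CPM.

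The promoters of 6 class II genes are shown because these genes moved together and share a promoter element. Each stretch ends 16 bases before the start that the promoter table uses (RefSeq, GRCm38.p6, all on chromosome 17), which in H2-DMb2 and H2-Eb2 lies inside the span listed for the gene, 5′ to 3′ on the gene's strand. Capitals mark ATTGG, the inverted CCAAT core of the Y box bound by NF-Y, or CCAAT read on the other strand. They lie at chr17:34287839-34287948 (minus strand, H2-Aa), chr17:34305742-34305851 (H2-Eb1), chr17:34092254-34092363 (H2-Oa), chr17:34238780-34238889 (H2-Ob), chr17:34145124-34145233 (H2-DMb2) and chr17:34325550-34325659 (H2-Eb2, all plus strand).
H2-Aa: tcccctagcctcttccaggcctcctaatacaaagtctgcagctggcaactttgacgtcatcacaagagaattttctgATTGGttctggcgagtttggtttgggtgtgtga
H2-Eb1: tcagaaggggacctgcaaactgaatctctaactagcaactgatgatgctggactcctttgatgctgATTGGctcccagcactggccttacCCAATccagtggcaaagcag
H2-Oa: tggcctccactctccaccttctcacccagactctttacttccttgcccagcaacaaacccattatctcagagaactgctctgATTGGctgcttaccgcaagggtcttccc
H2-Ob: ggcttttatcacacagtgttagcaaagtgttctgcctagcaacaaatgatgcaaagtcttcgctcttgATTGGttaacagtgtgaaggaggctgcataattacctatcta
H2-DMb2: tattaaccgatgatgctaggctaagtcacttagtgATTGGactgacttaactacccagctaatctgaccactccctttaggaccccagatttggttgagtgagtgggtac
H2-Eb2: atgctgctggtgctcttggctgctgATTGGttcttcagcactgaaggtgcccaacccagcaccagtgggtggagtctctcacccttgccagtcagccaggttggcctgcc
On the gene's own strand the core begins 48 bases before that start in H2-Aa, 59 in H2-Eb1, 43 in H2-Oa, 57 in H2-Ob, 90 in H2-DMb2 and 100 in H2-Eb2. Of the 10 class II genes with an entry in the promoter table, 8 had ATTGG on either strand within 250 bases before to 50 after the start, beside 42.8% of all 10976 tested genes with an entry. This motif was chosen after the class II values were seen, and a match is a description of letters.

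Class I genes, which present cytosolic peptides on nearly all cells, stood the other way. Of 20, 9 were higher, 10 kept and 1 lower, at a median of 0.59, and all 20 were at 10 CPM or more in both groups. B2m, the light chain, had 3170, 3400, 3166 and 3298 CPM against 876, 815 and 936, 3.72-fold higher. Tapbp, Pdia3 and Calr of the peptide-loading complex were 3.07-, 3.71- and 3.00-fold higher. The heavy chains H2-K1 and H2-D1, added after their values were seen, were 2.20- and 2.15-fold higher.

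The kept class I genes with the highest cDC2 levels were Psmb8, an immunoproteasome subunit, the peptide transporter Tap1 and the nonclassical chain H2-T23. Tap1 averaged 207 ± 17.3 against 254 ± 9.80 CPM and H2-T23 314 ± 35.9 against 234 ± 4.89. Psmb9, another immunoproteasome subunit, was the gene lower, with 24.7, 26.5, 22.6 and 27.4 CPM against 77.7, 83.8 and 85.6.

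**Figure D3:**
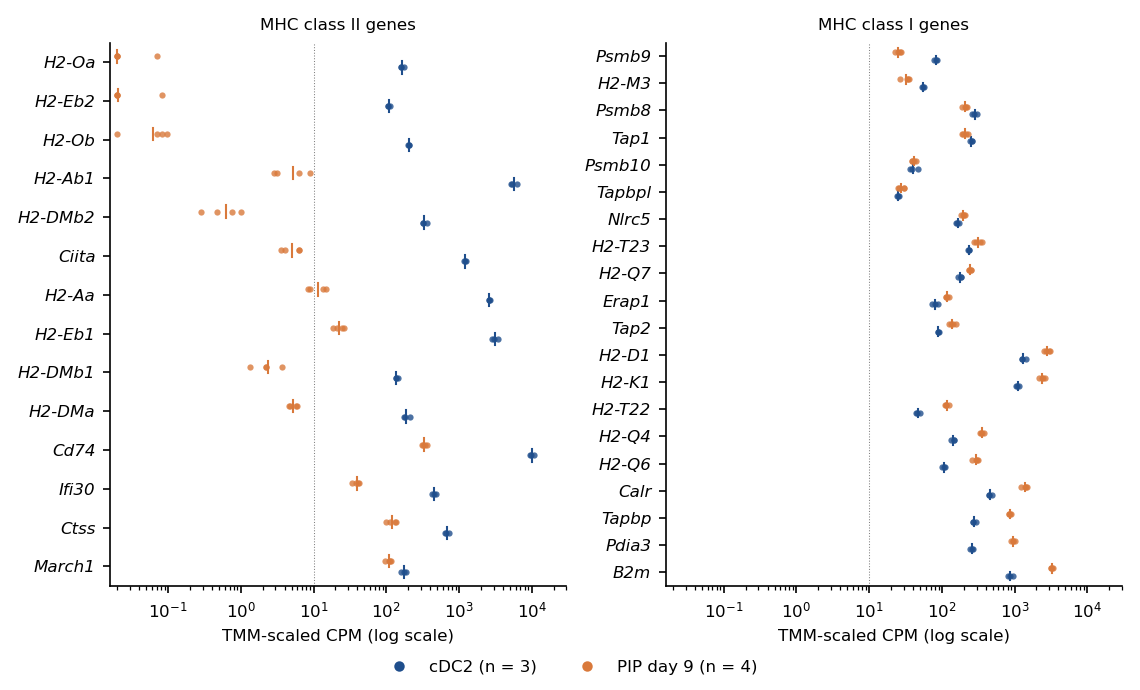
Level of each MHC class II and class I gene in every library (horizontal axis, TMM-scaled CPM, log scale, dotted line at 10 CPM; 3 cDC2 and 4 PIP libraries as dots), ordered by log2 fold change. The class II libraries of the groups lie far apart except for March1 (108.6 against 174 CPM), and the class I genes range from Psmb9, 3.26-fold lower in PIP cells, to B2m, 3.72-fold higher.

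Costimulation and maturation genes were mostly lacking, with 10 of 18 lower, 3 higher and 2 kept. Cd83, a maturation marker, averaged 1.60 ± 0.634 against 132.2 ± 10.9 CPM, and Icosl, the ligand of ICOS, 5.68 ± 0.845 against 285 ± 11.7. Cd80, which binds CD28, averaged 0.588 ± 0.126 against 29.5 ± 3.08 CPM, and was lower than in the fibroblasts, which had 12.5 CPM. Ccr7, the receptor that takes dendritic cells to lymph nodes, averaged 0.254 ± 0.207 against 29.5 ± 4.51.

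Cd40, the receptor for T cell help, was kept at 81.03 ± 6.46 against 48.8 ± 5.87 CPM, and so was Il15ra at 9.89 against 10.2 with overlapping libraries. Ccl17 and Ccl22, chemokines that attract CCR4-bearing T cells, were in excess. Ccl17 had 21.04, 22.7, 19.7 and 17.4 CPM against 1 count in all of cDC2, and Ccl22 16.9 ± 1.24 against 5.49 ± 1.21.

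Among 18 Toll-like receptors and adaptors, 10 were lower, 3 higher and 4 kept. The receptors Tlr1, Tlr6, Tlr7 and Tlr13 had 0.286, 0.133, 0.102 and 0.289 CPM in PIP cells against 57.3, 13.7, 43.6 and 70.2 in cDC2. They sense bacterial lipopeptides (Tlr1 and Tlr6) and RNA in endosomes (Tlr7 and Tlr13). Tlr9, the sensor of CpG DNA, averaged 1.80 ± 0.991 against 112.1 ± 3.46. Among the kept genes of this list, Unc93b1, the chaperone of endosomal receptors, averaged 304 ± 20.2 against 537 ± 26.7 CPM. The adaptors Myd88 and Ticam1, also kept, averaged 57.1 ± 7.53 against 95.3 ± 3.94 and 24.3 ± 2.35 against 24.04 ± 2.24.

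The lipopolysaccharide receptor was in excess. Tlr4 had 46.3, 49.7, 36.9 and 41.9 CPM against 5.02, 3.19 and 2.41, and its partner Cd14 18.6 ± 3.35 against 1.93 ± 0.949. In the fibroblasts they had 6.28 and 2.83 CPM.

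Of 20 C-type lectins 11 were lower, 6 higher and 1 kept. The Clec4a cluster was lost: Clec4a3 had no count in PIP cells against 19.001 ± 0.834 CPM, at least 301-fold lower, and Clec4a1 2 counts against 60.98 ± 2.97 CPM. Clec7a, the β-glucan receptor Dectin-1, averaged 0.599 ± 0.284 against 32.7 ± 2.53. Ly75, the uptake receptor CD205, was kept with overlapping libraries at 23.2 ± 3.20 against 26.9 ± 1.64 CPM. These genes lie at the far end of their list, so the list's median of -3.30 does not depend on the fitted value of a gene without counts.

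Other genes of the Cd209 family were in excess with Cd209a. Cd209e had 214, 239, 193 and 223 CPM against 3 counts in all of cDC2, and Cd209d 43.1, 50.5, 34.8 and 48.4 CPM against 0, 1.94 and 0.601. Neither had a count in the fibroblasts. Cd207, which encodes langerin of Langerhans cells, had 6.90 to 12.8 CPM against 2 counts in all of cDC2.

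The promoters of Cd209a and Cd209d, and that of the chemokine Ccl8 described below, are shown because they hold the letters GGAANNGAA, a composite of PU.1 letters (GGAA) and IRF letters (GAA), on one or both strands and belong to genes in excess. They lie at chr8:3748970-3749149 (minus strand, ending 14 bases after the start), chr8:3878515-3878624 (minus strand) and chr11:82115060-82115169 (plus strand, these ending 16 bases before the start that the promoter table uses, which in Cd209d lies inside the listed gene span), with capitals on the match or its reverse complement (RefSeq, GRCm38.p6).
Cd209a: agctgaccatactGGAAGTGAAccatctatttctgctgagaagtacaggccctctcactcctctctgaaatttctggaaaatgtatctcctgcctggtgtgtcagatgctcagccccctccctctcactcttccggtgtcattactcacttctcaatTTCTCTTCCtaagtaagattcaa
Cd209d: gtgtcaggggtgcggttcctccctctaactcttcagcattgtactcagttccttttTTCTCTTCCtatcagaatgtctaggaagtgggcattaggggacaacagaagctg
Ccl8: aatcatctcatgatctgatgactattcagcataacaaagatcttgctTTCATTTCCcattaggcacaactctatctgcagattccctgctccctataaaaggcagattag
Over all tested genes with a promoter entry 8.77% held GGAANNGAA on either strand, and the share was 10.1% of lacking, 9.57% of near absent, 8.93% of kept and 8.62% of excess genes, so that the classes lay near the background. The ETS core AGGAAGT, which GGAANNGAA can overlap, was in 11.04% of all and in 14.5% of lacking, 25.8% of near absent, 10.9% of kept and 9.15% of excess promoters. GTGAAAG, a core of Prdm1 sites, was in 4.26% of all, 5.41% of lacking, 9.09% of near absent, 3.77% of kept and 3.85% of excess promoters. GTGAAAG can share letters with the interferon response core GAAANNGAA, which was in 9.21% of all and in 10.6%, 16.3%, 8.64% and 9.20% of these classes. These shares describe 250 bases before to 50 after the start.

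Receptors that pair with signalling adaptors showed large losses. Of 16 inhibitory and activating myeloid receptors and their adaptors 14 were lower, at a median of -5.39. Lair1, a collagen receptor, Sirpb1a and Cd300c2 had 3, 4 and 4 counts over the PIP libraries against 110, 123.9 and 42.7 CPM in cDC2. Lilrb4a, an inhibitory receptor with an immunoreceptor tyrosine-based motif, was higher, with 175, 212, 246 and 186 CPM against 55.7, 56.1 and 53.4.

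Of 6 Fc receptor genes 3 were lower and 2 higher. Fcer1g, the common gamma chain on which activating Fc receptors depend, averaged 0.307 ± 0.143 against 85.5 ± 12.4 CPM. Fcgr2b, the inhibitory Fc receptor, had 155.7, 181, 165.6 and 174 CPM against 32.6, 28.1 and 29.7, and Fcgrt, the neonatal Fc receptor, was 3.86-fold higher. Fcgr1 had 1.57, 1.74, 0.671 and 1.69 CPM in PIP cells against 113.6, 28.3 and 3.11 in cDC2. That spread within cDC2 makes its size uncertain: without cDC2 replicate 1 the log2 fold change went from -5.05 to -3.40. The pattern over the cDC2 libraries was alike in Olfr698, an odorant receptor gene, with 625, 244 and 1.30 CPM.

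The NADPH oxidase, which makes superoxide in phagosomes, was kept in its membrane part, and the cytosolic members named here were lacking. Cybb had 174, 225, 163.04 and 203 CPM against 308, 306 and 292, and its partner Cyba averaged 122.6 ± 13.4 against 176 ± 23.1, both kept. Ncf1, the organizer subunit, averaged 1.49 ± 0.446 against 223 ± 11.2 CPM, 150-fold lower. Ncf4 was 16.3-fold lower, and Rac2, the GTPase of the complex, was near absent at 0.651 ± 0.370 against 155.5 ± 11.02. Cybb had 1.85 CPM in the fibroblasts.

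Genes that nearly all blood cells express were lacking as a block: 24 of 26 pan-leukocyte genes were lower and none higher, at a median of -5.11. Summed, they came to 878 to 1020 CPM in the PIP libraries and 14643 to 15481 in cDC2. Dock2, a guanine exchange factor for Rac, averaged 0.955 ± 0.310 against 706 ± 47.3 CPM, Cytip, a scaffold protein, 0.452 ± 0.305 against 292 ± 12.3, and Fyb, an adaptor of integrin signalling, 7.18 ± 1.56 against 808 ± 38.9. Cd53, a tetraspanin, was kept, with 58.5, 72.8, 51.7 and 69.7 CPM against 69.3, 58.997 and 66.5 and overlapping libraries.

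Over all genes, the lowest, and the near absent with the highest cDC2 levels, included the following. Bin2, Evi2b, Plbd1, Rgs1, Arhgap30 and Il2rg, the common gamma chain of interleukin receptors, had 0.171, 0.0413, 0.213, 0.120, 0.639 and 0.0621 CPM against 341, 205, 517, 348, 662 and 150. Prss30, a protease gene, had no count in PIP cells and 47.5 ± 3.04 CPM in cDC2, at least 753-fold lower. Asb2 and Nup210 averaged 0.608 and 0.914 against 410 and 424 CPM.

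Of 11 integrins, 6 were lower and 4 higher, with Itgam kept. Itgb2, the CD18 chain that pairs with CD11b and CD11c, averaged 17.4 ± 4.21 against 669 ± 33.7 CPM, 38.3-fold lower, although Itgam itself was kept. Itgal, the LFA-1 chain, was 67.1-fold lower and Itgb7 120.7-fold lower. Those higher were chains of matrix receptors: Itgb5, Itga5, Itgav and Itgb1 were 35.1-, 17.3-, 6.14- and 4.20-fold higher, and none of these 4 was called different from the fibroblasts.

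Of 13 chemokine and migration receptors 8 were lower (61.5%), 4 higher (30.8%) and 1 kept. The share higher was near the 29.3% of all genes tested. Ccr6 and Gpr183, the oxysterol receptor that positions cDC2 in the spleen, averaged 0.0794 and 0.277 against 22.7 and 66.9 CPM. S1pr3 and S1pr1, receptors for sphingosine 1-phosphate, averaged 60.4 and 18.1 CPM against 0.0668 and 0.539, and had 309 and 23.2 CPM in the fibroblasts.

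Of 16 growth factor and cytokine receptors 8 were lower, 2 higher and 3 kept. Csf2ra, the ligand-binding chain of the GM-CSF receptor, averaged 9.59 ± 1.46 against 178 ± 9.40 CPM, 18.5-fold lower. Its signalling chain was kept: Csf2rb had 190, 240, 196 and 249 CPM against 306, 306 and 297, and Csf2rb2, the copy that serves interleukin-3, 68.5, 89.9, 67.2 and 87.1 against 75.5, 73.5 and 68.2. Il4ra was kept at 191 ± 16.1 against 123.01 ± 4.26. Higher were Tgfbr2 (3.17-fold) and Ltbr (2.48-fold), and Csf3r, the G-CSF receptor, was near absent at 0.103 against 20.7 CPM.

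The cytokine genes were mixed, with 4 of 9 lower (44.4%) and 3 higher (33.3%), beside 26.7% and 29.3% of all genes tested. Il1b was kept with overlapping libraries at 56.5, 76.7, 51.9 and 70.5 CPM against 58.2, 54.4 and 53.5. Its antagonist Il1rn was 16.02-fold higher at 132.9 ± 15.1 against 8.20 ± 1.80, and Csf1, the macrophage growth factor, averaged 131.6 ± 9.50 against 6.10 ± 3.39 CPM. Tnf was 4.73-fold lower at 5.10 ± 1.79 against 24.4 ± 1.20, and Tgfb1 2.67-fold lower.

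Of the kept genes, 14 had under 1 CPM in the fibroblasts. They are given in full, after their values were seen: Slamf7, Csf2rb, Csf2rb2, March1, Cfp, Shtn1, Cd53, Ccr2, Il1b, Phf11b, Nod2, Tlr11, Nlrp10 and the predicted gene Gm49368. Cfp, which encodes the complement factor properdin, averaged 212 ± 27.9 CPM in PIP cells against 124.5 ± 10.9 in cDC2, and 0.977 in the fibroblasts. Nod2, a sensor of bacterial cell wall fragments, averaged 20.9 ± 1.99 against 28.98 ± 0.809, and Tlr11, a profilin sensor known from cDC1, 19.6 ± 2.94 against 14.9 ± 2.08 CPM. They were reached at different times. On a scale set jointly with the fibroblasts and splenic cells, Shtn1 had 82.5 CPM at day 3, 117.3 at day 6 and 108.9 at day 9 in tdT+CD45+ cells. Over the same days Slamf7 went from 15.9 to 145.2 and 228 and Tlr11 from 0.738 to 13.0 and 22.7.

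The 15 genes that the fibroblasts lacked and that stood above the cDC2 level included Cd209a, Irf4, Clec12a, Fcgr2b, Lilrb4a, Lilr4b, Sema4a, Mmp12, Aif1, Gatm, Nxpe5, Gm5431, AW112010 and AI504432, likewise named after their values were seen. Mmp12, a macrophage elastase, averaged 191 ± 26.2 against 56.4 ± 3.33 CPM, and Sema4a, a semaphorin that costimulates T cells, 130 ± 11.7 against 31.8 ± 1.04. Aif1, the actin-binding protein IBA1 of macrophages, averaged 43.6 ± 4.71 against 20.4 ± 2.55.

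**Figure D4:**
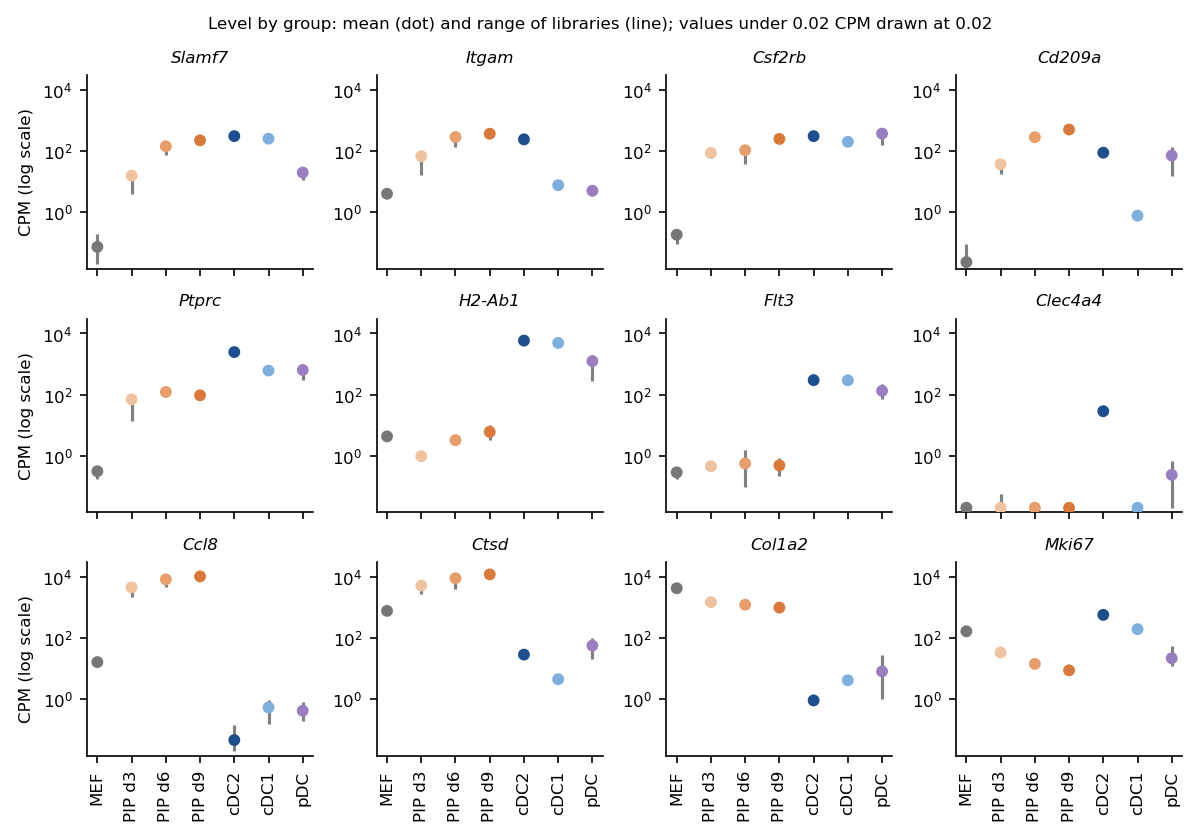
Level of 12 genes (CPM, log scale) in C9a.MEF, tdT+CD45+ PIP cells of day 3, 6 and 9, cDC2, cDC1 and pDC, as the mean (dot) and range (line) of the libraries of each group. Slamf7, Itgam and Csf2rb climb to within 2-fold of the cDC2 level by day 9 (Slamf7 228 against 313 CPM), Flt3 and Clec4a4 stay at the fibroblast level, and Ccl8 and Ctsd pass far above cDC2.

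Over all kept genes the highest cDC2 levels were found in genes that most cells use. Examples are Eef1a1 and Eef2, translation elongation factors with 2362 ± 114.4 and 1687 ± 184 CPM in PIP cells against 3363 ± 204 and 1435 ± 90.2, Actg1, a cytoskeletal actin with 1826 ± 191 against 1659 ± 126.02, and the chaperone Hspa8 with 1901 ± 16.6 against 2464 ± 147.7. Tmsb4x, an actin-binding peptide, had 993 ± 36.6 against 1613 ± 102.1 CPM. The median coefficient of variation within a group was 7.86% for kept genes in PIP cells and 8.33% in cDC2.

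Of 17 chemokines, 11 were higher and 5 lower, at a median of 3.97, and their summed level was 10313 to 11952 CPM in PIP cells against 179 to 192 in cDC2. Ccl8, a monocyte chemoattractant, had 8860, 9426, 8179 and 9265 CPM in PIP cells and 1 count in all 3 cDC2 libraries. It had 16.3 CPM in the fibroblasts and 4549 CPM at day 3. Its neighbours on chromosome 11 (mm10) were high too. Ccl12 at chr11:82101845-82103399 averaged 691 ± 62.6 CPM, Ccl2 at chr11:82035577-82037452 averaged 256 ± 12.8, and Ccl11 at chr11:82057832-82062955, an eotaxin, 276 ± 24.4. The cDC2 libraries held 1, 2 and 0 counts of these genes in all, so Ccl11 was at least 2318-fold higher.

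The members of that cluster differed in their level before reprogramming. In the fibroblasts Ccl2 stood at 752 CPM and was lower in PIP cells, Ccl11 at 76.2 and Ccl12 at 0.0952 CPM and both were higher in PIP cells. Of the chemokines lacking, Ccl6 was 15.9-fold lower at 1.48 ± 0.181 against 23.6 ± 2.49 CPM, Ccl9 3.65-fold and Ccl5 2.37-fold lower.

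Lysosomal genes were in excess as well: 19 of 25 were higher, 4 lower and 2 kept, at a median of 2.69, and the summed level was 24310 to 29682 CPM against 3980 to 4394. Ctsd, the aspartic protease cathepsin D, had 10166, 11287, 8801 and 11388 CPM against 27.8, 26.9 and 28.8, 374-fold higher. Ctsk, a collagen-degrading cathepsin of osteoclasts, averaged 1305 ± 95.4 CPM against 5 counts in all of cDC2. Ctsl and the tetraspanin Cd63 were 75.8- and 42.04-fold higher. Ctsd and Ctsk had 772 and 45.2 CPM in the fibroblasts, whereas Ctsl was lower in PIP cells than in the fibroblasts, where it had 624.

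The 4 lysosomal genes lower in PIP cells were Tfeb, a factor that switches on lysosomal genes, at 13.7 ± 0.408 against 114.1 ± 0.654 CPM, Cd68, Ctss and Ctsh. Ctsc and Npc1 were kept, at 87.7 ± 10.3 against 84.5 ± 2.33 and 102.8 ± 11.9 against 73.96 ± 7.18 CPM.

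Of 13 genes of lipid uptake and efflux 7 were higher, 3 lower and 2 kept. Abca1, the cholesterol exporter, averaged 732 ± 106.4 against 5.89 ± 1.73 CPM, 121.8-fold higher, Lpl, a lipoprotein lipase, 395 ± 36.96 against 1.92 ± 1.07, and the lipid droplet protein Plin2 471 ± 27.8 against 15.5 ± 0.549. Apoe, a lipoprotein that macrophages secrete, went the other way, with 4.47, 5.77, 5.08 and 6.94 CPM against 137.9, 143.8 and 175. Of 18 cholesterol synthesis genes 12 were not called, 8 of them kept, while 4 were higher and 2 lower. Srebf2, their master factor, was 3.81-fold lower, while Insig1, which holds back the SREBP factors, was 2.23-fold higher.

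Macrophage and monocyte markers were split, with 11 of the 20 tested higher and 9 lower, at a median of 2.74. Axl, a receptor for apoptotic cells, averaged 1414 ± 101.7 against 5.31 ± 0.915 CPM, and Gpnmb, a lysosomal glycoprotein, 222 ± 13.8 against 7 counts in all of cDC2. Both were already at 709 and 152.4 CPM in the fibroblasts. Marco, a scavenger receptor, was not: it had 27.6, 51.99, 18.8 and 54.9 CPM in PIP cells, 1 count in all of cDC2 and 0.123 CPM in the fibroblasts. Among the 9 lower in PIP cells, Adgre1, which encodes F4/80, averaged 0.747 ± 0.380 against 120.9 ± 5.18 CPM. Lyz2, a lysozyme, averaged 1.41 ± 0.836 against 207 ± 19.5 and Csf1r 44.6 ± 1.82 against 215 ± 18.7. Over the whole list of 28 the sum was 1759 to 2088 CPM in PIP cells and 877 to 944 in cDC2.

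Fibroblast and matrix genes were still on. All 32 tested were higher in PIP cells than in cDC2, at a median of 6.75, with a summed level of 7294 to 8495 against 53.2 to 73.1 CPM. Sparc averaged 726 ± 15.9 CPM, the collagen chaperone Serpinh1 425 ± 19.7 and the protease inhibitor Timp2 2063 ± 228, against 10, 7 and 34 counts in all of cDC2. Against the fibroblasts Sparc and Serpinh1 were lower (1891 and 1265 CPM there) and Timp2 was higher (1026 CPM there). Col1a2, a chain of type I collagen added after its values were seen, averaged 853 ± 122.8 CPM in PIP cells and 4242 in the fibroblasts.

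Contractile genes, which mark activated fibroblasts, were higher for 9 of 11. Acta2, the smooth muscle actin, averaged 34.5 ± 4.99 CPM against 3 counts in all of cDC2, and had 1527 CPM in the fibroblasts. Tagln and Myl9 averaged 20.7 and 19.02 CPM and had 610 and 188 in the fibroblasts. Flna, an actin crosslinker, was kept at 811 ± 33.8 against 1070 ± 34.1 CPM. Over all genes the highest included Cavin2, Ly6c1 and Gpx8, at 105.3 ± 10.9, 113.5 ± 6.80 and 41.3 ± 2.76 CPM and without a count in cDC2, at least 883-, 952- and 347-fold higher.

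The cultured cells also lacked transcripts of division. Of 20 genes of the G2 and M phases 19 were lower and none higher, at a median of -4.13, and of 20 S phase genes 18 were lower, at a median of -2.67. Mki67, a marker of cycling cells, had 8.03, 8.76, 5.46 and 8.06 CPM against 632, 597 and 442, and 165.8 CPM in the fibroblasts. Uhrf1, which maintains DNA methylation, averaged 1.54 ± 0.324 against 113.02 ± 2.61 CPM, 73.8-fold lower, Mcm5, of the replicative helicase, 3.72 ± 0.913 against 90.9 ± 5.89, and Tk1, a thymidine kinase, 0.613 ± 0.115 against 21.3 ± 4.6004. Of 12 inhibitors of cyclin-dependent kinases and p53 targets 8 were higher. Cdkn1a, which encodes p21, had 407, 410, 426 and 416 CPM against 6.39, 9.69 and 6.62, 55.3-fold higher, with 342 CPM in the fibroblasts. Cdkn1b and Cdkn2c were 4.13- and 8.12-fold lower.

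Immediate early genes and genes that tissue dissociation is known to raise were lower for 13 of 19. Hspa1b and Hspa1a, inducible heat shock proteins, averaged 4.32 ± 0.477 and 5.59 ± 0.934 against 965 ± 103.04 and 841 ± 36.2 CPM. Nr4a1 was 55.2-fold and Fosb 22.7-fold lower. Fos and Jund were kept, at 141.8 ± 5.88 against 190 ± 24.5 and 183 ± 29.9 against 184 ± 20.1, and Ier3 was 8.99-fold higher. How much of these differences goes with the handling of spleens and cultures was not tested.

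Interferon-stimulated genes were higher for 16 of 29, kept for 8 and lower for 1, at a median of 1.33. Isg15, a ubiquitin-like modifier, averaged 238 ± 23.3 against 11.9 ± 1.39 CPM, 19.9-fold higher, Ifit2, an inhibitor of translation of viral RNA, 800 ± 74.7 against 30.6 ± 0.305, 26.1-fold higher, and Ifi44 157.1 ± 6.93 against 1.66 ± 0.430. In the fibroblasts Isg15 had 177 and Ifit2 84.4 CPM. Irf9, part of the factor that interferon receptors activate, was the gene lower, 2.16-fold, and Mx1, Ddx58 and Ifih1 were kept. The interferon response core GAAANNGAA was in 15 of the 22 list promoters with an entry (68.2%), beside 9.21% of all.

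Of 14 genes of the unfolded protein and amino acid response 6 were higher and none lower. Asns averaged 27.8 ± 2.75 against 0.631 ± 0.409 CPM, Chac1 11.6 ± 1.67 CPM against 2 counts in all of cDC2, and Ddit3 68.02 ± 4.12 against 10.7 ± 1.64. Atf4, the factor that drives them, was kept at 107.8 ± 3.06 against 107.4 ± 10.2. Glycolysis genes were higher for 9 of 19 and lower for 2. Aldoc, an aldolase, was 36.8-fold higher at 150 ± 7.85 against 4.02 ± 1.11 CPM, Pgk1 4.74-fold and Pgam1 5.41-fold higher, while Gapdh was kept and Hk2, a hexokinase, was 4.49-fold lower. Of 13 Notch pathway genes 6 were higher and 2 lower. Notch1 averaged 49.9 ± 3.57 against 14.2 ± 1.67 CPM, Notch3 14.3 ± 1.80 against 1.33 ± 1.02 and Notch4 2.81 ± 0.352 against 14.2 ± 1.63, while Hes1, a direct target, was kept.

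**Figure D5:**
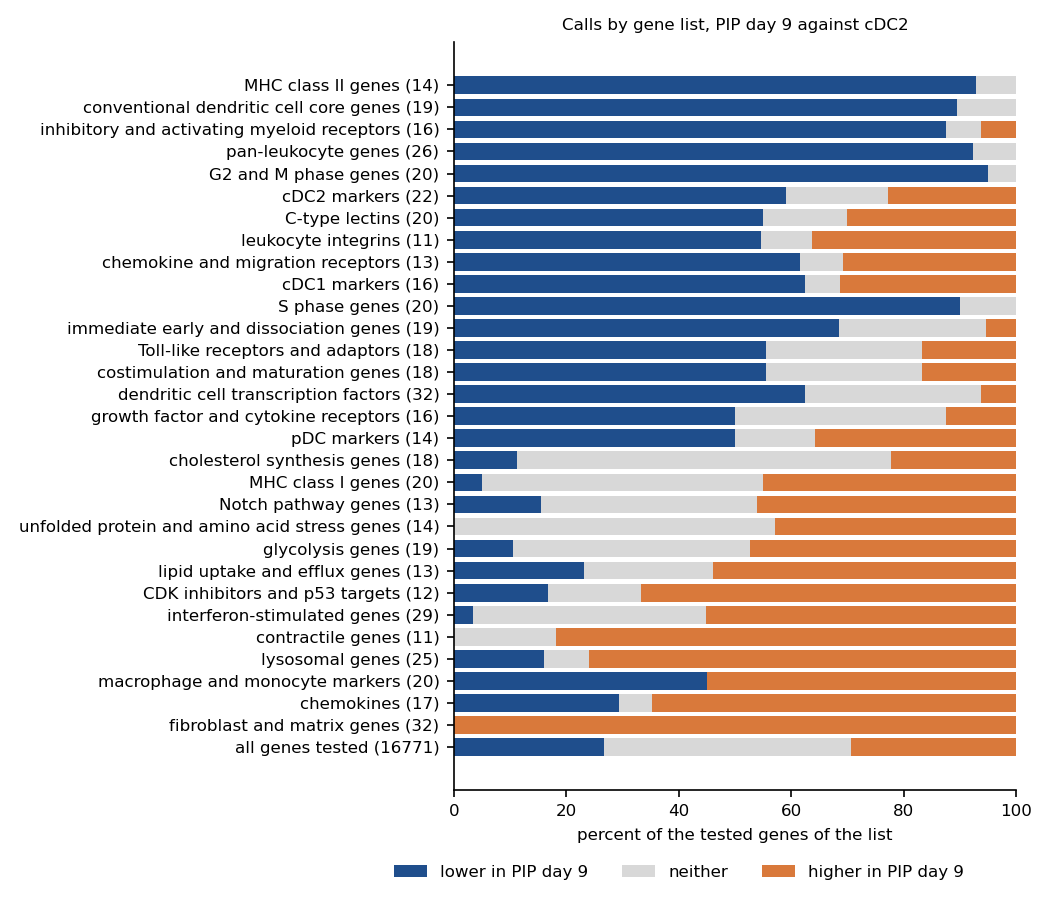
Share of the tested genes of each list that were lower (blue), neither (grey) or higher (orange) in PIP cells than in cDC2 (horizontal axis, percent), with the number tested in brackets and all 16771 tested genes for comparison. Class II, pan-leukocyte, core and cell cycle lists are mostly blue, and fibroblast, lysosomal and chemokine lists mostly orange.

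Markers of other cell types were low or mixed. In cDC2, B cell markers summed to 409 to 457 CPM, most of it Cd22 (252 ± 11.8 CPM) and Ighm (154.9 ± 15.5), while Cd79b and Ms4a1, added after their values were seen, averaged 5.84 and 5.22 CPM. In PIP cells the 12 B cell markers summed to 9.47 to 14.3 CPM. T and NK cell markers summed to 2.51 to 6.14 CPM in cDC2 and 2.34 to 3.81 in PIP cells, and granulocyte and mast cell markers to 17.7 to 25.1 and 6.32 to 8.28, with Elane and S100a9 at 0 in both. Erythroid and platelet markers stayed at or below 10.4 CPM. The 5 endothelial markers summed to 91.5 to 99.7 CPM in cDC2, mostly Pecam1 (84.7 ± 3.87), which leukocytes express too. The part of these cells in the results was not tested.

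Of 16 tested cDC1 markers 10 were lower and 5 higher. Clec9a, whose promoter drove the reporter, had 1 count in all PIP libraries and 21.6, 16.3 and 19.1 CPM in cDC2. The PIP cells carry Clec9a(Cre/Cre) and the cDC2 came from wildtype mice. For this gene the altered locus and the state of the cells cannot be told apart. Wdfy4, needed for cross-presentation, averaged 98.1 ± 16.1 against 1856 ± 54.3 CPM, and Batf3 2.44 ± 0.196 against 42.9 ± 0.743. Cadm1, an adhesion molecule, was higher at 56.8 ± 5.17 against 5.78 ± 1.75, and Cd24a 7.30-fold higher. Rab7b, of endosomes, had 150, 153.7, 133.2 and 158.1 CPM against 61.8, 33.4 and 16.7, and its log2 fold change of 2.01 became 2.61 without cDC2 replicate 1.

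Of 14 tested pDC markers 7 were lower and 5 higher. Klra17, an inhibitory lectin-like receptor, had 165.8, 191, 159.1 and 198 CPM against 5.77, 4.71 and 5.41, with 0.123 CPM in the fibroblasts. Bst2, a tetherin that interferon induces, was 44.9-fold higher, with 197 CPM in the fibroblasts. Tcf4, the factor of pDC identity, was kept at 82.5 ± 7.37 against 78.4 ± 4.39 and had 136.7 CPM in the fibroblasts.

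The remaining sort gates of day 9 were set against the same cDC2 libraries, so the comparisons share them and are given side by side. PIP cells gated as CD45+ (4 libraries) had 4449 of 16667 genes lower (26.7%) and 4745 higher (28.5%), and those gated as tdT+ (4 libraries) 4243 of 16857 lower (25.2%) and 4865 higher (28.9%). Ptprc averaged 100 CPM in the CD45+ and 2.29 in the tdT+ gate. Of the 2720 lacking genes, 2534 were also called lower in the CD45+ and 2569 in the tdT+ gate, and of the 343 near absent genes 342 in each.

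The gates differed in level for single genes. Slamf7 averaged 183 CPM in the CD45+ and 101.3 in the tdT+ gate, and was lower than in cDC2 in the tdT+ gate (log2 fold change -1.62) but not called in the CD45+ gate (-0.73). The difference between the gates was not tested. Marco averaged 81.98 CPM in the CD45+ and 8.31 in the tdT+ gate, and H2-Eb1 4.56 and 34.5 CPM, with 14.96 to 81.2 among the tdT+ libraries. Cd209a was higher than in cDC2 in every gate, at 298 and 238 CPM in the CD45+ and tdT+ gates. Clec4a4 had no count in either. In the tdT+ gate Cybb, March1, Unc93b1, S100a4 and Tmsb4x were called lower than in cDC2, at log2 fold changes of -1.35, -1.12, -1.21, -1.29 and -1.03. Klf4, Mmp12, Aif1, Tmem176a, H2-K1 and H2-D1 were not called in that gate, at -0.76, 0.92, 0.05, 0.41, 0.83 and 0.79, nor were Ccl22, Insig1, Rbpj and AW112010, at 0.87, 0.93, 0.99 and -0.02. In the CD45+ gate Ccl5, Ccl9 and Irf9 were not called, at -0.82, -0.75 and -0.98, and Tmem176b was called higher, at 1.00.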

How the data were processed

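RNA-seq counts per gene, whole numbers in 1 table that the authors deposited, were used as given. The submitters' processing notes name mm10, STAR 2.7.9a and Salmon 1.10.1. Which of these tools gave the counts, and with which strand setting, is not given in the sources used here. Genes were tested with edgeR 4.0.16 (R 4.3.3, limma 3.58.1): TMM scaling, the filterByExpr filter by group, and a robust quasi-likelihood fit of 4 PIP d9 tdT+CD45+ and 3 cDC2 libraries, with Benjamini-Hochberg adjustment over all genes tested. Group means, SDs and library values are TMM-scaled CPM from these counts. Values for days, C9a.MEF, cDC1 and pDC come from a joint scaling of those groups with the cDC2 and the PIB d9 tdT+CD45+ libraries of the series. They differ slightly from those of the 2-group fit (Cd209a in PIP cells 512 against 442 CPM). Fits of the other day 9 gates against cDC2, and of PIP cells against C9a.MEF, were run in the same way. The test was checked on simulated data in which most genes were unchanged, unlike here, so that check does not cover the scaling of these data. Alternatives were DESeq2 1.42.0 (its test and its size factors), other filters, other limits, a replicate block, 1 fit over 41 groups and leaving out each library. Same-numbered replicates are not stated to share an animal or culture.

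The genes compared and all gene lists were chosen with earlier results of these data known. Names in the text follow a rule. It takes all transduced factors, sort markers and cDC2 markers. From each other list it takes, at 10 CPM or more in either group, up to 4 lower and 4 higher genes with the largest changes and no overlap, and up to 3 kept genes with the highest cDC2 mean. Over all genes it takes the 12 lowest, the 12 highest, and the 12 kept and 12 near absent genes with the highest cDC2 means, without unnamed, predicted, mitochondrial, histone, ribosomal and antigen receptor genes. For lists of other cell types it adds the member of highest mean in each group. Outside that rule, chosen after their values were seen, are Zbtb46, Cd79b, Ms4a1, Col1a2, Cd74, Ciita, H2-K1, H2-D1 and the genes kept or in excess that C9a.MEF lacked. A fold against a group without counts is a lower bound against a floor of 3 counts over that group. Promoter letters are from RefSeq (GRCm38.p6), with an entry for 10976 of 16361 tested symbols. Results for some genes that the rule for named genes would take are not reported here.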

Additional observations from a re-analysis of the deposited data

Results flagged for a closer look

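Of the 252 genes named, 17 had 1 PIP library set apart from the other 3 by a gap that is large for 4 samples, and chance alone sets about 1 in 20 such groups apart. The cDC2 libraries, 3 in number, were not examined in this way. Replicate 1 of the PIP cells was low for the corepressor Cbfa2t3, at 11.1 CPM against 13.9 to 14.1 in the others, and for Zeb2, at 141.04 against 155.9 to 158.8. It was high for Lsm2, an RNA-binding protein, at 5.63 against 4.50 to 4.59. Replicate 3 was low for Isg15, at 204 against 247 to 255 CPM, for Nlrp10, at 14.3 against 19.3 to 20.2, for Phf11b, at 23.7 against 32.5 to 33, and for Fcgr1, at 0.671 against 1.57 to 1.74. It was high for Tlr6, at 0.287 against 0.0695 to 0.0938. Replicate 2 was low for Dpp4, at 0.348 against 0.844 to 0.911 CPM. Replicate 4 was high for the hexokinase Hk2, at 26.5 against 22.9 to 23.1 CPM, and for Clec4a2, at 0.75 against 0.331 to 0.383. It held no count of Cytip (0 against 0.556 to 0.671 CPM). The remaining values come from genes found in a single PIP library: Clec9a (0.0695 CPM) and H2-Oa (0.0695 CPM) in replicate 2, H2-Eb2 (0.0828 CPM) and Il2rg (0.248 CPM) in replicate 1, and Mgl2 (0.0938 CPM) in replicate 4.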

How the results depend on the processing

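With the call and the interval set at 4-fold instead of 2-fold, 2500 genes were lower, 2816 higher, 1373 lacking, 6271 kept and 1549 in excess. With classes set at 5 CPM, 587 genes were near absent. Under the other settings these counts stayed within 1.5 times the reported ones. Leaving out 1 library at a time gave 4303 to 4682 genes lower, 4637 to 5210 higher, 2649 to 2718 lacking, 334 to 369 near absent, 3367 to 3551 kept and 2723 to 2845 in excess.

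With replicate number as a replicate block there were 4461 genes lower, 4946 higher, 2737 lacking, 343 near absent, 3333 kept and 2716 in excess. Deviations of same-numbered libraries correlated at -0.026, -0.003 and 0.039, and those of differently numbered ones at -0.066 to 0.081. With so few pairs these values cannot say whether libraries share an animal, culture or batch.

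Of the named genes that were called, 1 changed sign: AW112010 had a log2 fold change of -0.0187 in the tdT+ gate. Of the named kept genes, which were not called, 22 changed sign under at least 1 setting, the other day 9 gates included. Some, such as Itgam, Il4ra, Csf2rb, Cybb, Notch2 and Tlr11, did so only in those gates, which hold differently sorted cells. The direction is not settled for those that changed sign in refits of the same cells, such as Atf4, Cd53 and Ddx58. In the fit over all 41 groups Ccl22, Ccl5, Aif1, AW112010 and Gm5431 lost their call, at adjusted p of 0.064, 0.052, 0.083, 0.090 and 0.071, Lsm2 lost it at a log2 fold change of -0.97, and Tmem176b was called higher at a log2 fold change of 1.01. The cause was not tested.

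Depth limits the genes near 0. At 3 counts the floor of a single library is 0.209 to 0.415 CPM, so levels below a library's own floor rest on 1 or 2 counts. Counting error is the only error that floor covers.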
